A study of Mus musculus with 11 samples.

Results

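The mitochondrially encoded genes are the 37 genes whose annotated exons all lie on the mitochondrial chromosome (MT), of 53801 genes counted. They comprise 13 protein-coding genes, 2 rRNA genes and 22 tRNA genes, and their choice did not use any measured value. Total RNA of neural progenitor cells (NPCs), grown as neurospheres from brains of E13.5 embryos of a mixed C57BL/6 and 129SV background, was sequenced in 11 libraries after depletion of cytoplasmic and mitochondrial rRNA. All embryos carried floxed *Smg6* alleles (*Smg6* encodes an endonuclease of nonsense-mediated mRNA decay). Ctr cells (3 embryos, SMH_128, SMH_132 and SMH_133) were *Smg6* Flox/Flox; RosaCreER tg/+ without treatment. Ctr + 4-OHT cells (4 embryos, SMH_125, SMH_126, SMH_129 and SMH_131) were *Smg6* Flox/Flox; RosaCreER +/+, lacked the recombinase, and received 1 µM 4-hydroxytamoxifen (4-OHT) for 3 days. *Smg6*-iKO cells (4 embryos, SMH_127, SMH_128, SMH_132 and SMH_133) were *Smg6* Flox/Flox; RosaCreER tg/+ and received the same 4-OHT. RNA of the treated cultures was taken 6 days after the start of the treatment. Embryos SMH_128, SMH_132 and SMH_133 gave a library to each of Ctr and *Smg6*-iKO, which pairs these groups by animal. RosaCreER is driven by a ubiquitously active locus, so that it does not select a cell type within the cultures.

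The mitochondrial chromosome is a small circle that is present in many copies per cell and is transcribed from both strands as long precursor RNAs. The tRNAs that lie between the longer genes are cut out of these precursors and thereby free the mRNAs and rRNAs. The 13 proteins are subunits of complex I (Nd1 to Nd6 and Nd4l), complex III (Cytb), complex IV (Co1 to Co3) and the ATP synthase (Atp6 and Atp8), whereas all other subunits of these complexes are encoded in the nucleus. Both rRNAs and all 22 tRNAs serve the mitochondrial ribosome, which translates these 13 mRNAs. All genes for mRNAs are read as heavy-strand mRNAs except *mt-Nd6*, the single mRNA of the opposite strand.

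Total counts per library ranged between 26418249 and 33756875, and a gene at 0 reads was below 3 counts, which is 0.0889 to 0.114 CPM (counts per 1000000 counts). *Smg6* itself was at 69.4 to 79.4 CPM in Ctr, 66.5 to 72.3 CPM in Ctr + 4-OHT and 62.3 to 71.9 CPM in *Smg6*-iKO. These gene totals do not separate the floxed exon from the rest of the gene. The recombinase is fused to a form of the ligand-binding part of the oestrogen receptor. The mouse gene of this receptor, *Esr1*, was at 4.09 to 4.67 CPM in Ctr, at 3.89 to 4.71 CPM in *Smg6*-iKO and at 0.0323 to 0.283 CPM in Ctr + 4-OHT. Whether these reads came from the mouse gene or from the fusion was not tested. All 8 neural progenitor markers (*Sox2*, *Nes*, *Pax6*, *Vim*, *Fabp7*, *Hes1*, *Hes5* and *Notch1*) had at least 1 CPM in every library and summed to 5217 to 5442 CPM in Ctr, 4584 to 5676 CPM in Ctr + 4-OHT and 4488 to 5078 CPM in *Smg6*-iKO. All 6 neuron markers also had at least 1 CPM in every library and summed to 1737 to 1905 CPM in Ctr, 1590 to 2577 CPM in Ctr + 4-OHT and 2024 to 2327 CPM in *Smg6*-iKO. *Smg6*-iKO was thus lower than Ctr in the progenitor sum and higher in the neuron sum without overlap, whereas Ctr + 4-OHT overlapped both groups. The 6 oligodendrocyte lineage markers summed to 617 to 680 CPM in Ctr, 687 to 918 CPM in Ctr + 4-OHT and 603 to 737 CPM in *Smg6*-iKO. In this sum Ctr + 4-OHT lay above Ctr without overlap. The sum of the 5 astrocyte markers overlapped between all groups. The 5 erythroid markers summed to at most 0.216 CPM and the 5 microglia markers to at most 1.55 CPM.

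Counts of the 37 genes differed along the molecule. A stretch of 4662 bases of MT, from 6381 to 11042 in GRCm38, has an annotated copy on the minus strand of nuclear chromosome 1 (24611535 to 24616197). This copy is annotated as 7 genes (*Gm29216*, *Gm28661*, *Gm10925*, *Gm28437*, *Gm28438*, *Gm10222* and *Gm28439*) that follow each other in the order of the mitochondrial genes. Of the 37 genes, 11 lay wholly inside the copied span, namely *mt-Co2*, *mt-Atp8*, *mt-Atp6*, *mt-Co3*, *mt-Nd3*, *mt-Nd4l* and the tRNA genes *mt-Ts1*, *mt-Td*, *mt-Tk*, *mt-Tg* and *mt-Tr*. None of these 11 genes had more than 1 read in any library, and together they held 2 reads in all 11 libraries. The 2 genes that lay partly inside, *mt-Co1* and *mt-Nd4*, held 1429777 reads. The 24 genes outside held 5049334 reads, and 5 of them, all for tRNAs, had no more than 1 read in any library.

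The start of *mt-Co2*, for a catalytic subunit of complex IV, and the start of its chromosome 1 copy are shown because they are the same over all 60 bases. The sequences are from the GENCODE M21 transcripts of GRCm38, with *mt-Co2* at MT:7013-7072 on the plus strand and *Gm28661* at chr1:24615506-24615565 on the minus strand. The capitals mark the bases that the pair shares.
mt-Co2: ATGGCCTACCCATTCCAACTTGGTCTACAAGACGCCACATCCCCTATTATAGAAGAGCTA
Gm28661: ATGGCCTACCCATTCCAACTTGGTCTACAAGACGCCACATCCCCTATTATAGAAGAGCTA

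The edges of the copied span run through *mt-Co1* and *mt-Nd4*, and both edges are shown because these 2 genes lie partly inside it. The *mt-Co1* window is MT:6364-6423 and the *mt-Nd4* window is MT:11013-11072, both on the plus strand. The capitals mark, in *mt-Co1*, the first bases that match *Gm29216* without a mismatch and, in *mt-Nd4*, the last bases shared with *Gm28439*.
mt-Co1: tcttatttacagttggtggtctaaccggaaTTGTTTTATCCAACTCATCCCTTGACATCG
mt-Nd4: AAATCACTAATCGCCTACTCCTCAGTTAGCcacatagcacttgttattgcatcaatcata

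The copies of *mt-Co2*, *mt-Atp6*, *mt-Co3* and *mt-Nd4l* and the copied 876 bases of *mt-Nd4* were identical to the mitochondrial genes. The copy of *mt-Nd3* had 1 mismatch in 345 bases (T3C, the mitochondrial base first, counted from the first base of the gene). The annotated copy of *mt-Co1*, compared without gaps, had 6 mismatches in 492 bases. All of them lay near its start, from T1056A to A1066T, and the bases after them were identical. Whether the bases before A1066T belong to the copy was not tested. The authors counted reads of 50 bases that mapped to 1 place and to 1 gene. Of the 50-base windows of each gene, 100% in *mt-Co2*, 99.9% in *mt-Co3*, 99.5% in *mt-Atp6*, 98.8% in *mt-Nd4l* and 98.0% in *mt-Nd3* also occurred in a nuclear transcript. These 5 genes had 1 read in all 11 libraries. The share was 62.2% in *mt-Nd4*, 51.1% in *mt-Co1*, 8.19% in *mt-Nd2* and 7.61% in *mt-Nd5*, and no window of *mt-Nd1*, *mt-Nd6* or *mt-Cytb* was shared. Of the 765 shared windows of *mt-Co1*, 430 were in the chromosome 1 copy and the others in other nuclear transcripts.

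The remaining protein-coding gene without reads, *mt-Atp8*, had no window in a nuclear transcript. The same held for the 5 tRNA genes inside the copied span. *mt-Atp8* lies in the copied span between the annotated copies, and the letters of chromosome 1 at this place were not compared here. Its last 43 bases overlap *mt-Atp6*, shown in capitals because reads that touch both genes were also left out of the counts (MT:7907-7969, plus strand).
mt-Atp8: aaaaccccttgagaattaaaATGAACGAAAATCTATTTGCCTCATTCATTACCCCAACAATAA

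The 7 genes of the chromosome 1 copy received 27 reads in all 11 libraries, with 0 to 8 per library. The counts of these 11 genes give no level for their RNAs, and the part of the copy in the counts was not tested.

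**Figure D1:**
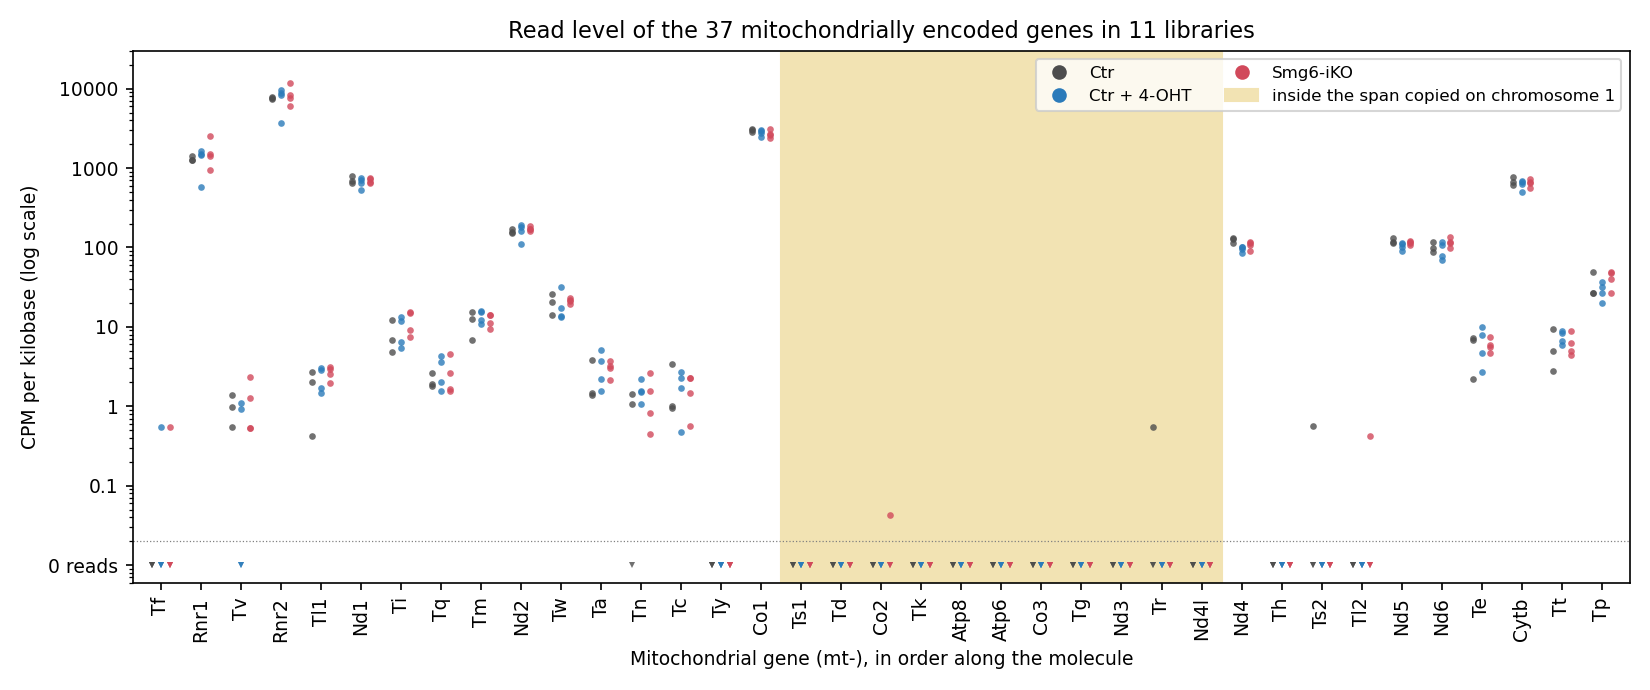
CPM per kilobase of gene length (log axis) of the 37 genes in their order along the molecule, with 1 point per library, and libraries without a read drawn as triangles on the line marked 0 reads. The 11 genes in the shaded span, which is copied on chromosome 1, held 2 reads in all, whereas *mt-Rnr2* and *mt-Co1* had the highest levels.

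**Figure D2:**
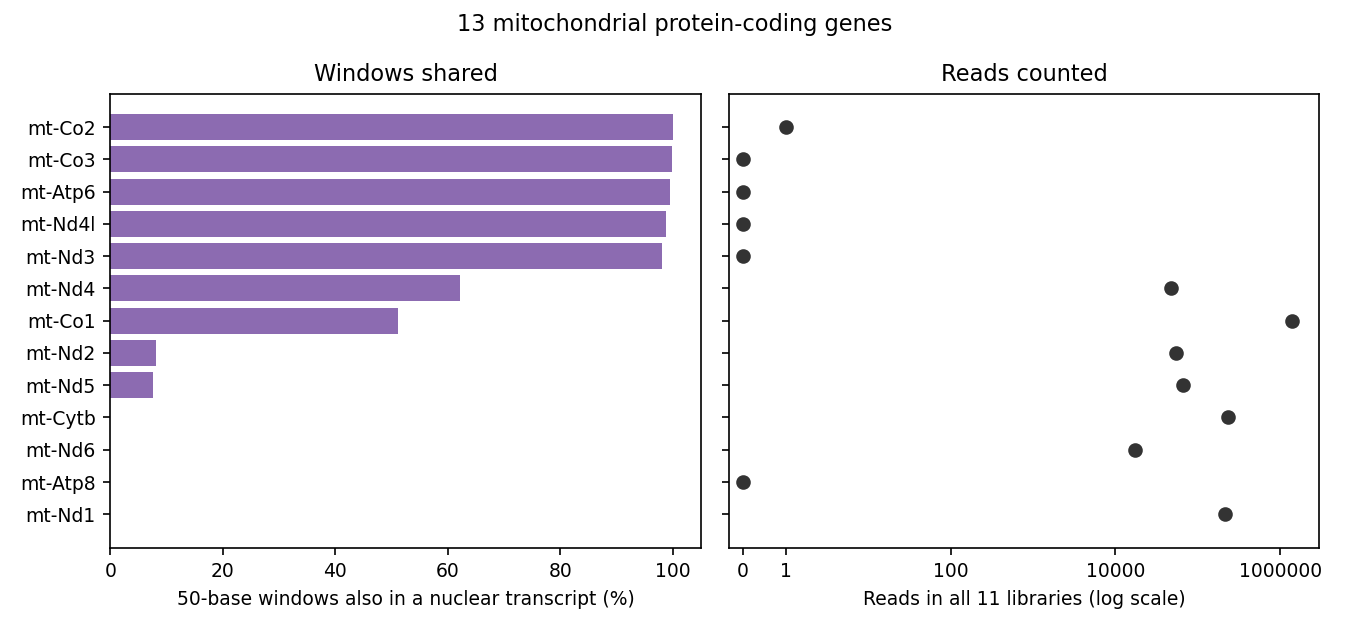
For the 13 protein-coding genes, the percent of 50-base windows that also occur in a nuclear transcript (bars) and the reads in all 11 libraries (points, log axis with 0 at the left). The 5 genes with 98.0 to 100% of windows shared had at most 1 read, and *mt-Atp8* had no read without a shared window.

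Of the 37 genes, 11 had no read in any library, 19 were read in every library and 9 had at least 1000 reads in every library. These 9 were both rRNA genes and the 7 protein-coding genes *mt-Nd1*, *mt-Nd2*, *mt-Co1*, *mt-Nd4*, *mt-Nd5*, *mt-Nd6* and *mt-Cytb*. The rRNA genes held 68.9% of the 6479113 mitochondrial reads, the protein-coding genes 31.1% and the tRNA genes 0.0342%. Per kilobase of gene length that no nuclear transcript shares, which takes all counted reads to come from there, the mean level over the 11 libraries was 8211 CPM for *mt-Rnr2* (16S rRNA), 5916 CPM for *mt-Co1* and 1491 CPM for *mt-Rnr1* (12S rRNA). It was 727 CPM for *mt-Nd1*, 673 CPM for *mt-Cytb*, 296 CPM for *mt-Nd4*, 188 CPM for *mt-Nd2* and 114 CPM for *mt-Nd6*, with *mt-Nd5* between the latter genes. The rRNA levels are what remained after the depletion of rRNA, so that their order against the mRNAs is not that of the cells. Among the 7 mRNAs with counts, *mt-Co1* (the core catalytic subunit of complex IV) was the highest and *mt-Nd6* (a complex I subunit) the lowest on this scale, and the other 6 mRNAs have no usable level.

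Mitochondrial reads made up 2.01, 1.97 and 2.00% of all counts in Ctr. They made up 1.18, 2.31, 2.18 and 2.07% in Ctr + 4-OHT (embryos SMH_125, SMH_126, SMH_129 and SMH_131), and 2.71, 1.71, 2.08 and 1.92% in *Smg6*-iKO (embryos SMH_127, SMH_128, SMH_132 and SMH_133). The highest and the lowest library were thus a *Smg6*-iKO and a Ctr + 4-OHT library, and the 3 Ctr libraries lay between them within 0.0455 percentage points of each other. The mean share was 1.99% ± 0.0236 (SD, n = 3) for Ctr, 1.93% ± 0.514 (SD, n = 4) for Ctr + 4-OHT and 2.10% ± 0.429 (SD, n = 4) for *Smg6*-iKO. The share of *Smg6*-iKO did not differ beyond the spread between embryos from that of Ctr + 4-OHT (two-sided exact permutation test, p = 0.629) or Ctr (exact permutation p = 0.829), nor did that of Ctr + 4-OHT from Ctr (exact permutation p = 1). The directions turned with single libraries. *Smg6*-iKO minus Ctr + 4-OHT was 0.172 percentage points, but -0.0804 without library SMH_125 and -0.0288 without library SMH_127. *Smg6*-iKO minus Ctr was 0.112, but -0.0889 without library SMH_127 and also within embryos. Ctr + 4-OHT minus Ctr was -0.0601, but 0.192 without library SMH_125. The counting error of a share was at most 0.00573 percentage points (on either side, 95% Wilson interval), and covers neither the depletion of rRNA nor the culture. In RNA of whole cultures, a change in the kinds of cells and a change in mitochondrial RNA per cell cannot be told apart.

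The spread was widest in the rRNA genes. They held 1.35, 1.30 and 1.33% of all counts in Ctr, 0.641, 1.66, 1.52 and 1.44% in Ctr + 4-OHT, and 2.09, 1.05, 1.47 and 1.34% in *Smg6*-iKO. The library of embryo SMH_125 was the lowest and that of embryo SMH_127 the highest, and no difference between groups exceeded the spread (exact permutation p of 0.629, 0.657 and 1 for *Smg6*-iKO against Ctr + 4-OHT, *Smg6*-iKO against Ctr, and Ctr + 4-OHT against Ctr). Without both libraries (an alternative chosen after seeing the data), *Smg6*-iKO lay 0.254 percentage points below Ctr + 4-OHT, instead of 0.171 above it. Within embryos the rRNA share of *Smg6*-iKO was lower than that of Ctr in 1 of the 3 pairs (SMH_128), and the mean difference was -0.0382 percentage points, whereas the unpaired difference was 0.162. The depletion of mitochondrial rRNA and its amount in the cells cannot be told apart in these libraries. Nuclear rRNA genes held 0.0302% of the counts in library SMH_125 and 0.00857% in library SMH_127, against 0.00511 to 0.191% in Ctr. The 5 mesenchyme markers summed to 1513 CPM in library SMH_127 and 722 CPM in library SMH_125, against 274 to 887 CPM in the other 9 libraries. The part of these values in the rRNA levels was not tested.

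Both rRNAs moved together between libraries. *mt-Rnr2* ranged between 5872 and 18198 CPM and *mt-Rnr1* between 559 and 2364 CPM, and both had their lowest value in library SMH_125 and their highest in library SMH_127. The number of 16S reads per 12S read was 10.1, 9.77 and 8.78 in Ctr, 10.5, 9.48, 9.85 and 9.11 in Ctr + 4-OHT, and 7.70, 10.7, 9.10 and 8.89 in *Smg6*-iKO. The groups overlapped in this ratio. The log2 ratio of *Smg6*-iKO differed by -0.11 from Ctr + 4-OHT (two-sided exact permutation p = 0.371) and by -0.08 from Ctr (exact permutation p = 0.571). Without library SMH_127 these differences were -0.0305 and -0.00279, and without *Smg6*-iKO library SMH_128 they were -0.19 and -0.16. The former was -0.0703 without library SMH_125. The latter was -0.0376 without Ctr library SMH_128 and -0.14 without Ctr library SMH_133. The log2 fold change of *mt-Rnr1* against Ctr was 0.23 ± 0.24 (SE, edgeR adjusted p = 0.590) and changed sign to -0.10 ± 0.084 with the embryo as a block (edgeR adjusted p = 0.415). Without the filter on low counts it was 0.24 ± 0.069 and was called (edgeR adjusted p = 0.0122).

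Protein-coding genes varied less. They held 0.664, 0.670 and 0.667% of all counts in Ctr, 0.534, 0.644, 0.661 and 0.624% in Ctr + 4-OHT, and 0.618, 0.662, 0.610 and 0.576% in *Smg6*-iKO. Every library of both 4-OHT-treated groups lay below every Ctr library, and the treated groups overlapped each other. Mean shares were 0.667% ± 0.00320 (SD, n = 3) for Ctr, 0.616% ± 0.0567 (SD, n = 4) for Ctr + 4-OHT and 0.617% ± 0.0354 (SD, n = 4) for *Smg6*-iKO. The difference from Ctr was -0.0504 percentage points in *Smg6*-iKO (two-sided exact permutation p = 0.0571) and -0.0512 in Ctr + 4-OHT (exact permutation p = 0.143). Without library SMH_125, the latter was -0.0239 percentage points (exact permutation p = 0.10, the smallest that 3 against 3 libraries allow). Within embryos the share was lower in *Smg6*-iKO in 3 of 3 pairs, with a mean difference of -0.0508 percentage points (exact sign-flip permutation p = 0.25, the smallest that 3 pairs can give). The progenitor and neuron markers separated *Smg6*-iKO from Ctr too, and the oligodendrocyte lineage markers separated Ctr + 4-OHT from Ctr. Their part in these differences was not tested. Neither difference from Ctr passed the threshold of 0.05, and no exact permutation p below 0.0286 is possible with these numbers of embryos. The difference between *Smg6*-iKO and Ctr + 4-OHT was 0.000796 percentage points (exact permutation p = 0.971). It was -0.0265 without library SMH_125, -0.0144 without *Smg6*-iKO library SMH_128 and -0.0134 per TMM effective library size, so that it has no stable direction. Of the 18 tests of 4 class shares and 2 ratios in 3 comparisons, 0 had an exact permutation p under 0.05, and the smallest value after Benjamini-Hochberg adjustment was 0.514.

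**Figure D3:**
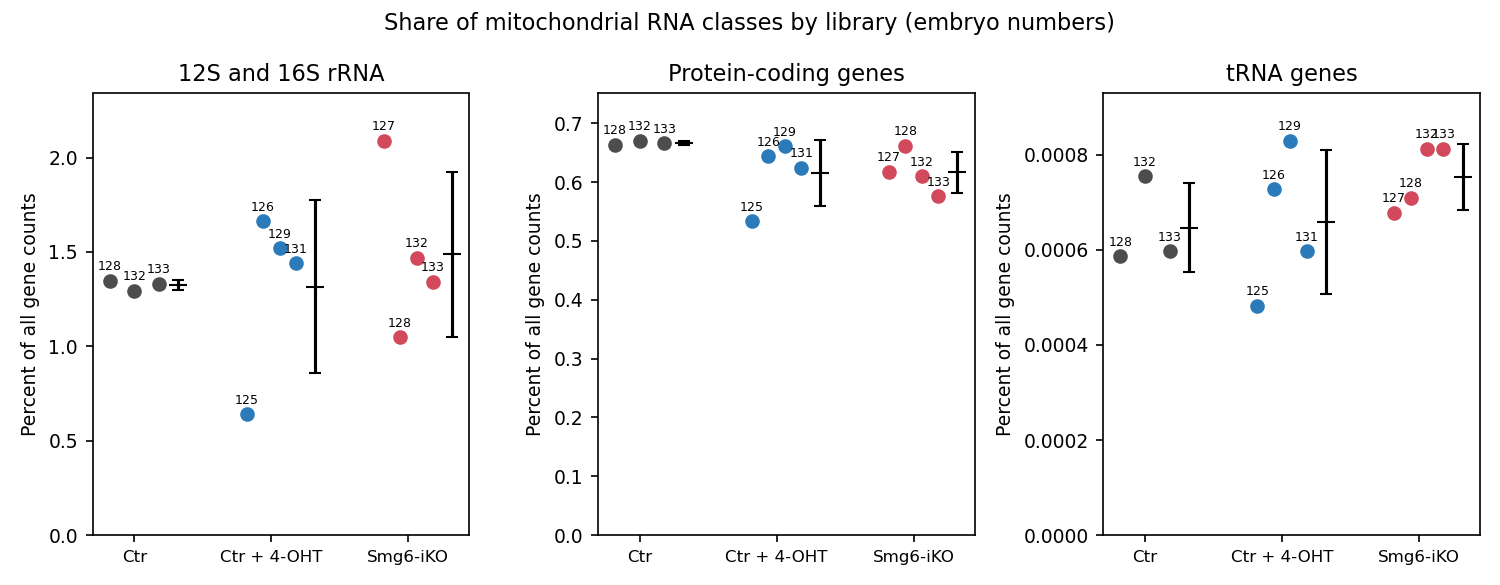
Percent of all gene counts on the mitochondrial rRNA, protein-coding and tRNA genes, with 1 point per library labelled by its embryo and the group mean ± SD in black (n = 3, 4 and 4). Library SMH_125 was the lowest and library SMH_127 the highest for rRNA, and all 8 treated libraries lay below the 3 Ctr libraries for the protein-coding genes.

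In the fits across all genes, 15 of the 37 genes passed the filter on low counts in each comparison, namely both rRNA genes, 7 protein-coding genes and the 6 tRNA genes *mt-Tp*, *mt-Tw*, *mt-Tm*, *mt-Ti*, *mt-Tt* and *mt-Te*. The other 22 were not tested. edgeR's quasi-likelihood test called 0 of the 15 in *Smg6*-iKO against Ctr + 4-OHT, where it called 1.17% of all genes tested, and none of the 15 had an unadjusted p under 0.05. It also called 0 of the 15 in *Smg6*-iKO against Ctr, where it called 9.25% of all genes tested, and 2 had an unadjusted p under 0.05. In Ctr + 4-OHT against Ctr it called 0 of the 15, where it called 0.221% of all genes tested, and 2 had an unadjusted p under 0.05. DESeq2's Wald test called 0 mitochondrial genes in the first comparison (2.44% of all genes tested) and 1 in each of the comparisons with Ctr, which was *mt-Nd4* (6.71% of all genes tested for *Smg6*-iKO and 0.486% for Ctr + 4-OHT). DESeq2 was run without the filter on low counts, on 36098, 35855 and 34560 genes. Its shares over all genes, here and below, are thus not those of the genes that edgeR tested. The median log2 fold change of the 15 genes was 0.11, 0.03 and -0.09 in the same order, beside 0.0124, 0.00546 and 0.00451 over all genes tested.

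*mt-Nd4* encodes a proton-pumping subunit of complex I. Its level was 161, 183 and 181 CPM in Ctr, 116, 140, 136 and 138 CPM in Ctr + 4-OHT, and 158, 123, 154 and 146 CPM in *Smg6*-iKO. On this TMM-scaled level all 8 treated libraries lay below the 3 Ctr libraries, and the treated groups overlapped. Per total counts, *Smg6*-iKO and Ctr overlapped, with 160 CPM in *Smg6*-iKO library SMH_127 and 156 CPM in Ctr library SMH_128. Against Ctr, the log2 fold change was -0.27 ± 0.085 (SE) in *Smg6*-iKO (edgeR adjusted p = 0.0715) and -0.40 ± 0.080 in Ctr + 4-OHT (edgeR adjusted p = 0.126). By DESeq2 it passed the threshold in both (adjusted p = 0.0178 and 0.00402). *Smg6*-iKO differed from Ctr + 4-OHT by 0.14 ± 0.089 (edgeR adjusted p = 0.465), and by 0.0759 without library SMH_125. Both comparisons with Ctr share the same 3 Ctr libraries. Among the 15 genes, in TMM-scaled CPM, *mt-Nd4* was the single gene without overlap in *Smg6*-iKO against Ctr, where 11.9% of all genes tested were lower and 11.4% higher without overlap. In Ctr + 4-OHT against Ctr, *mt-Nd4* and *mt-Nd5* were lower without overlap, beside 4.91% of all genes tested that were lower and 3.80% that were higher. In *Smg6*-iKO against Ctr + 4-OHT all 15 genes overlapped, whereas 5.99% of all genes tested were lower and 5.03% higher without overlap. Of the 1329 windows of *mt-Nd4*, 502 are in no nuclear transcript, and where its counted reads lie was not tested.

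With the embryo as a block, which compares the *Smg6*-iKO and Ctr libraries of the same animal, 3 of the 15 genes were called, all lower in *Smg6*-iKO, beside 21.4% of all genes tested in either direction and 11.2% lower. Library SMH_127 has no Ctr partner and does not inform this estimate. *mt-Nd4* fell by 0.39, 0.24 and 0.31 on the log2 scale in embryos SMH_128, SMH_132 and SMH_133 (fitted log2 fold change -0.31 ± 0.049, edgeR adjusted p = 0.000192). *mt-Co1* fell by 0.04, 0.23 and 0.29 in the same embryos (-0.19 ± 0.049, edgeR adjusted p = 0.0103). *mt-Cytb*, the single mitochondrially encoded subunit of complex III, fell by 0.17, 0.11 and 0.26 (-0.18 ± 0.049, edgeR adjusted p = 0.0149). Of the 15 genes, 5 were lower in 3 of 3 embryos, namely these 3 and *mt-Nd1* and *mt-Nd5*, which were not called, and 25.9% of all genes tested were also lower in 3 of 3. The 3 calls among 15 genes are near the share of all genes called with the block. No embryo gave both a Ctr and a Ctr + 4-OHT library, so these differences within embryos cannot be told apart from those of the 4-OHT treatment.

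The unpaired values of *mt-Co1* were 4881, 4696 and 4475 CPM in Ctr, 3847, 4524, 4723 and 4170 CPM in Ctr + 4-OHT, and 3957, 4735, 3997 and 3662 CPM in *Smg6*-iKO, and the groups overlapped. Its log2 fold change without the block was -0.20 ± 0.080 against Ctr (edgeR adjusted p = 0.147) and -0.07 ± 0.099 against Ctr + 4-OHT (edgeR adjusted p = 0.786). The latter was -0.15 without *Smg6*-iKO library SMH_128, -0.0251 without that of SMH_133, -0.13 without library SMH_125, -0.0263 without library SMH_129 and -0.0451 without library SMH_126. Without *Smg6*-iKO library SMH_128, the difference of *mt-Co1* from Ctr was -0.27 and was called (edgeR adjusted p = 0.0175). *mt-Cytb* was at 724, 771 and 883 CPM in Ctr, 569, 763, 726 and 767 CPM in Ctr + 4-OHT, and 808, 645, 716 and 740 CPM in *Smg6*-iKO. All 3 groups overlapped in *mt-Cytb*, and its log2 fold change without the block was -0.12 ± 0.086 against Ctr (edgeR adjusted p = 0.388). It was -0.0428 without the Ctr library of SMH_133 and -0.18 without that of SMH_128.

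**Figure D4:**
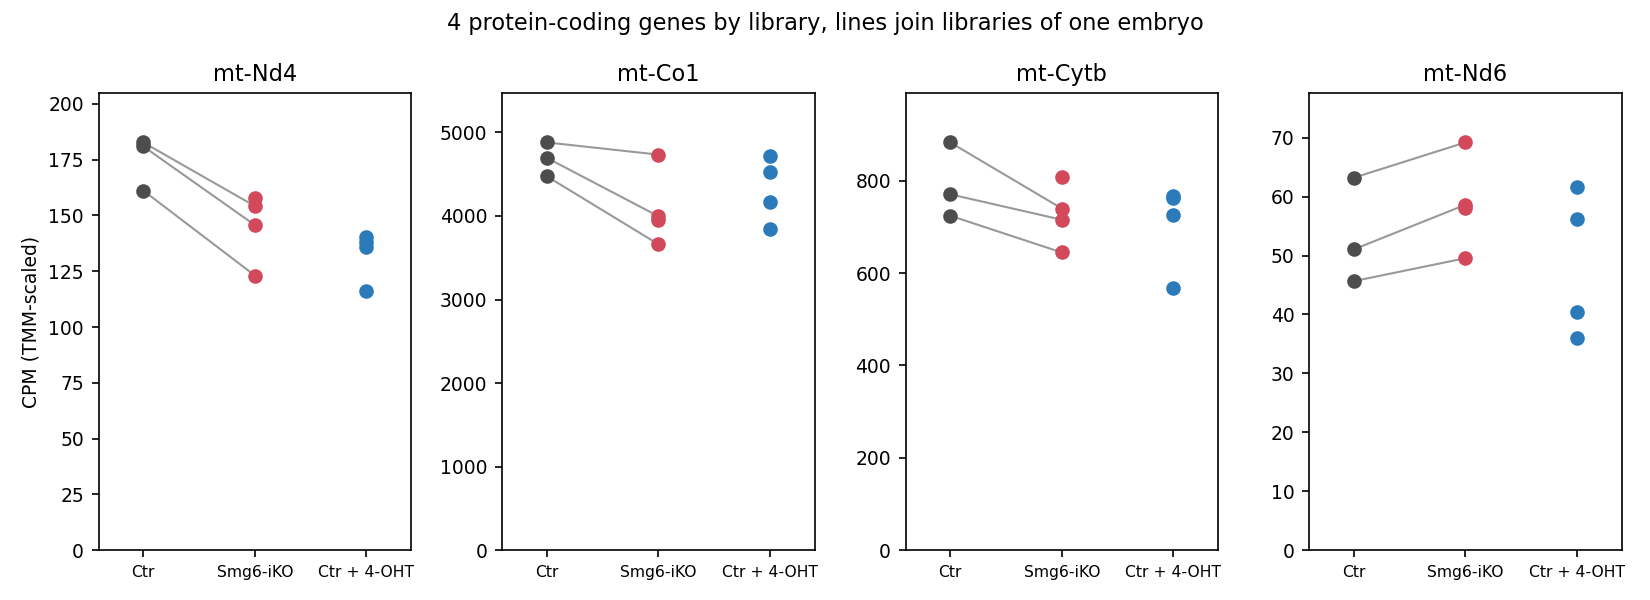
TMM-scaled CPM of *mt-Nd4*, *mt-Co1*, *mt-Cytb* and *mt-Nd6* with 1 point per library, and lines that join the Ctr and *Smg6*-iKO libraries of embryos SMH_128, SMH_132 and SMH_133. The lines of *mt-Nd4*, *mt-Co1* and *mt-Cytb* go down in 3 of 3 embryos and those of *mt-Nd6* go up in 3 of 3.

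For the light-strand mRNA *mt-Nd6*, the values within embryos lay on the other side of 0. Its level was 63.2, 51.0 and 45.6 CPM in Ctr, 40.4, 56.2, 61.6 and 36.0 CPM in Ctr + 4-OHT, and 58.1, 69.2, 58.6 and 49.6 CPM in *Smg6*-iKO. The groups overlapped, and the log2 fold change of *Smg6*-iKO was 0.29 ± 0.17 against Ctr + 4-OHT (edgeR adjusted p = 0.423) and 0.14 ± 0.12 against Ctr (edgeR adjusted p = 0.496). Leaving out 1 library gave 0.16 (without SMH_131) to 0.42 (without SMH_129) for the former, and 0.0379 (without the Ctr library of SMH_133) to 0.29 (without that of SMH_128) for the latter. The difference within embryos was 0.13, 0.20 and 0.12 on the log2 scale and missed the threshold (0.15 ± 0.053, edgeR adjusted p = 0.0501 with the block). The log2 ratio of *mt-Nd6* to the summed heavy-strand mRNAs was -6.75, -7.04 and -7.20 in Ctr, -7.04, -6.85, -6.76 and -7.41 in Ctr + 4-OHT, and -6.70, -6.55, -6.65 and -6.82 in *Smg6*-iKO. The mean ratio of *Smg6*-iKO was higher than that of Ctr + 4-OHT by 0.33 (two-sided exact permutation p = 0.0571) and than that of Ctr by 0.32 (exact permutation p = 0.0857), with overlap in both. Without Ctr + 4-OHT library SMH_129, the former difference was 0.42 with an exact permutation p of 0.0286, and without library SMH_131 it was 0.20 (exact permutation p = 0.0857). The heavy-strand sum rests mainly on *mt-Co1*, and as the median of the ratios to the 6 other counted mRNAs the differences were 0.21 (exact permutation p = 0.429) and 0.24 (exact permutation p = 0.257).

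None of the other complex I subunits that could be counted was called by edgeR in any comparison, with or without the block. *mt-Nd1* was at 639.5, 660 and 778 CPM in Ctr, 501, 634, 693 and 707 CPM in Ctr + 4-OHT, and 710, 625, 625 and 693 CPM in *Smg6*-iKO. *mt-Nd2* was at 170, 161 and 180 CPM in Ctr, 116, 189, 200 and 167 CPM in Ctr + 4-OHT, and 189, 167, 171 and 174 CPM in *Smg6*-iKO. *mt-Nd5* was at 219, 242 and 211 CPM in Ctr, 163, 209.9, 208 and 182 CPM in Ctr + 4-OHT, and 202, 209, 216 and 192 CPM in *Smg6*-iKO. The Ctr + 4-OHT and Ctr libraries did not overlap for *mt-Nd5* (log2 fold change -0.23 ± 0.096, edgeR adjusted p = 0.573), and all other groups of these 3 genes overlapped. Without the block, the log2 fold changes of the 7 protein-coding genes lay between -0.07 and 0.29 in *Smg6*-iKO against Ctr + 4-OHT, with 6 of 7 above 0, and between -0.27 and 0.14 against Ctr, with 5 of 7 below 0. In Ctr + 4-OHT against Ctr all 7 were below 0, between -0.40 and -0.02. These signs were not tested as a group.

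**Figure D5:**
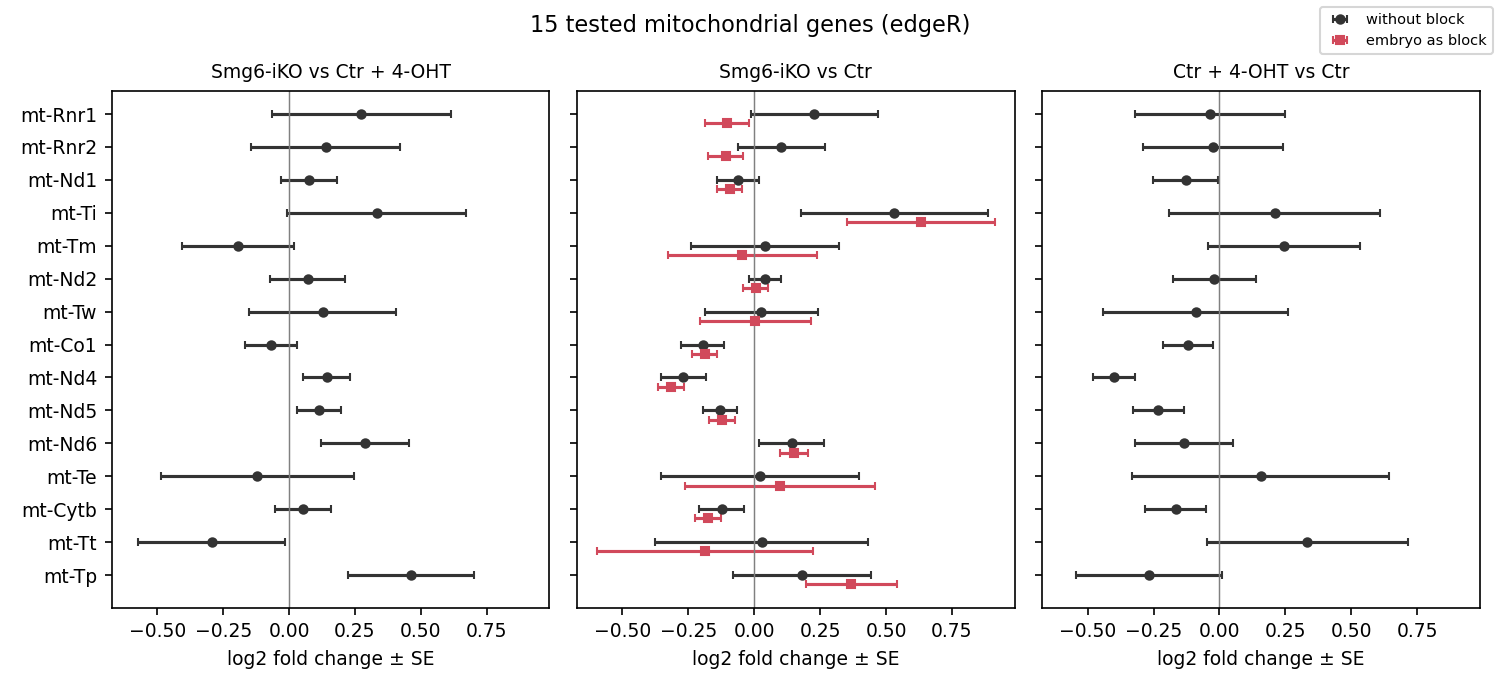
Log2 fold change ± SE from edgeR of the 15 tested genes in the 3 comparisons, with the fit that has the embryo as a block drawn as red squares in *Smg6*-iKO against Ctr. Without the block 0 of 15 genes were called in each comparison, and with it *mt-Nd4*, *mt-Co1* and *mt-Cytb* were called lower.

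The composition of the mRNA reads was led by *mt-Co1* in every library. Its share of the protein-coding reads was 71.2, 69.4 and 66.3% in the Ctr libraries of embryos SMH_128, SMH_132 and SMH_133, and 72.0, 67.3 and 64.7% in the *Smg6*-iKO libraries of the same embryos. The embryos thus kept their order in both groups. *mt-Cytb* followed with 9.81 to 13.3%, *mt-Nd1* with 9.33 to 12.2%, *mt-Nd5* with 2.95 to 3.63%, *mt-Nd2* with 2.16 to 3.10%, *mt-Nd4* with 1.87 to 2.70% and *mt-Nd6* with 0.584 to 1.05% over the 11 libraries. These shares are of counted reads and are not corrected for the windows shared with nuclear transcripts.

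The tRNA genes were close to the limit of what these libraries count. The 22 genes held 2215 reads in all 11 libraries, and their share of all counts was 0.000587, 0.000754 and 0.000597% in Ctr, 0.000482 to 0.000829% in Ctr + 4-OHT and 0.000678 to 0.000812% in *Smg6*-iKO. *Smg6*-iKO did not differ beyond the spread from Ctr + 4-OHT (two-sided exact permutation p = 0.371) or from Ctr (exact permutation p = 0.143). The highest counts per length were those of *mt-Tp* (proline), *mt-Tw* (tryptophan) and *mt-Tm* (methionine), which together held 66.0% of the tRNA reads. At the other end, the 6 genes *mt-Ts1*, *mt-Ty*, *mt-Tk*, *mt-Td*, *mt-Th* and *mt-Tg* had no read. *mt-Tp* and *mt-Tm* are shown because they held the most reads among the tRNAs whose anticodon was found by pairing of its stem, with the anticodon in capitals. *mt-Tp* lies at MT:15356-15422 on the minus strand and *mt-Tm* at MT:3845-3913 on the plus strand.
mt-Tp: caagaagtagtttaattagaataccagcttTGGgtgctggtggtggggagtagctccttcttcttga
mt-Tm: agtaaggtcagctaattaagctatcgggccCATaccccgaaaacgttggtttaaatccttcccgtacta

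With 67 and 69 bases, both genes are hardly longer than a read. Counting was by strand, so that a 50-base read was left out only where it also covered a gene of the same strand. *mt-Tm* is followed by *mt-Nd2* on its own strand, whereas *mt-Tp* adjoins *mt-Tt* of the other strand. *mt-Tp* had 36 to 104 reads per library, or 1.87, 3.32 and 1.84 CPM in Ctr, 1.34, 2.18, 2.52 and 1.77 CPM in Ctr + 4-OHT, and 1.75, 2.68, 3.16 and 3.16 CPM in *Smg6*-iKO. All groups overlapped, and its log2 fold change was 0.46 ± 0.24 in *Smg6*-iKO against Ctr + 4-OHT (edgeR adjusted p = 0.364) and 0.18 ± 0.26 against Ctr (edgeR adjusted p = 0.704). The latter was 0.0366 without the Ctr library of SMH_133, 0.52 without that of SMH_132 and 0.37 with the embryo as a block (edgeR adjusted p = 0.144). The former was 0.31 without library SMH_125 and 0.63 without library SMH_127. Over the 6 tested tRNA genes the log2 fold changes lay between -0.29 and 0.46 in *Smg6*-iKO against Ctr + 4-OHT, with SEs of 0.21 to 0.37, and none was called. The SEs of the 2 rRNA genes in this comparison were 0.28 and 0.34.

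Mitochondrial RNA is made, matured and translated by nuclear-encoded proteins, and 3 lists of these were read from the same fits. Of 80 nuclear OXPHOS subunits (the nuclear partners of the 13 proteins), 37 were lower and 0 higher in *Smg6*-iKO against Ctr, beside 4.98% of all genes tested that were lower. The median log2 fold change of the list was -0.20. *Smg6*-iKO and Ctr differ in both the deletion and the 4-OHT treatment, and the parts of these cannot be told apart in this comparison. The same applies to the next lists. With the embryo as a block 54 were lower and 0 higher, where 11.2% of all genes tested were lower. DESeq2 called 46 lower, where it called 3.91% of all genes tested lower, genes with low counts included. The count by edgeR without the block was 8, 9 and 18 without the Ctr library of SMH_128, SMH_132 and SMH_133, and 17, 17 and 7 without the *Smg6*-iKO library of SMH_127, SMH_132 and SMH_133, whereas it was 52 without that of SMH_128, and it was 22 with all libraries in 1 fit. In the same order, 1.64, 2.04 and 3.52% of all genes tested were lower without the Ctr libraries, 2.64, 2.86 and 1.96% without the *Smg6*-iKO libraries, 7.76% without that of SMH_128 and 2.63% in 1 fit, so that fewer or more genes were called in general. In the 6 fits with fewer calls that left out a library, the median log2 fold change of the list was -0.23 to -0.19. The progenitor markers were lower (4488 to 5078 against 5217 to 5442 CPM) and the neuron markers higher (2024 to 2327 against 1737 to 1905 CPM) in *Smg6*-iKO than in Ctr, and their part in the counts of this list and of the next ones was not tested. The 3 with the smallest p were the complex I subunit *Ndufv3* (-0.30 ± 0.051, edgeR adjusted p = 0.00706) and the complex IV subunits *Cox7b* (-0.29 ± 0.050, adjusted p = 0.00820 from edgeR) and *Cox8a* (-0.43 ± 0.078, adjusted p = 0.010 from edgeR). None of the 80 was called by edgeR in *Smg6*-iKO against Ctr + 4-OHT (median -0.09, with 4 lower by DESeq2, where 1.37% of all genes tested were lower) or in Ctr + 4-OHT against Ctr (median -0.09, with 0 by DESeq2). The list has short genes, with a median annotated length of 1688 bases against 3776 for all genes tested. Among the 25% of genes with the shortest annotated length, 5.36% were called lower in *Smg6*-iKO against Ctr.

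Of 82 mitochondrial ribosomal proteins, 81 were tested, and 10 were lower and 0 higher in *Smg6*-iKO against Ctr (median log2 fold change -0.11), beside 4.98% of all genes tested that were lower and 4.27% that were higher. With the embryo as a block 14 were lower and 1 higher, where 11.2% of all genes tested were lower. DESeq2 called 12 lower, where it called 3.91% of all genes tested lower, genes with low counts included. By edgeR without the block, the count was 2 without the *Smg6*-iKO library of SMH_133, 15 without that of SMH_128 and 3 without each of the other libraries. It was 2 with all libraries in 1 fit. These are 2.47, 18.5, 3.70 and 2.47% of the 81 genes, all lower, beside 1.96, 7.76, 1.64 to 3.52 and 2.63% of all genes tested that were lower in the same fits. The list was thus near the share of all genes in most of these fits. The 3 with the smallest p were *Mrps18a* (-0.45 ± 0.069, edgeR adjusted p = 0.00530) of the small subunit and *Mrpl18* (-0.33 ± 0.058, edgeR adjusted p = 0.00858) and *Mrpl42* (-0.30 ± 0.061, edgeR adjusted p = 0.0173) of the large subunit. *Mrpl42* was no longer called without the *Smg6*-iKO library of SMH_133 (log2 fold change -0.28, edgeR adjusted p = 0.0575) or with all libraries in 1 fit (log2 fold change -0.30, edgeR adjusted p = 0.0554). edgeR called 0 of the 81 in *Smg6*-iKO against Ctr + 4-OHT and in Ctr + 4-OHT against Ctr. DESeq2 called 6 lower in the former, where it called 1.37% of all genes tested lower. In the latter it called 1 lower, beside 0.370% of all genes tested.

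Of 66 genes for maintenance and expression of mitochondrial DNA and RNA, 6 were higher and 2 lower in *Smg6*-iKO against Ctr, where 4.27% of all genes tested were higher and 4.98% lower. With the embryo as a block 14 were called (21.2%), 9 higher and 5 lower, which is the share of all genes called with the block (21.4%). The smallest p were those of *Primpol* (0.34 ± 0.059, edgeR adjusted p = 0.00793), a primase-polymerase of nucleus and mitochondria, *Mto1* (0.28 ± 0.053, edgeR adjusted p = 0.0128), which modifies mitochondrial tRNAs, and *Hsd17b10* (-0.33 ± 0.066, edgeR adjusted p = 0.0151), a subunit of mitochondrial RNase P. The count of 8 became 1, 3 and 5 without the Ctr library of SMH_128, SMH_132 and SMH_133, and 4, 3 and 3 without the *Smg6*-iKO library of SMH_127, SMH_132 and SMH_133, and it was 9 without that of SMH_128. All genes tested were called in either direction at 3.16, 3.15 and 5.53%, at 4.77, 5.53 and 3.23%, and at 14.1% in the same fits, where the list was at 1.52, 4.55 and 7.58%, at 6.06, 4.55 and 4.55%, and at 13.6%. Without the Ctr library of SMH_128, *Mto1* (log2 fold change 0.25, edgeR adjusted p = 0.0597) and *Hsd17b10* (log2 fold change -0.31, edgeR adjusted p = 0.0637) were no longer called. Against Ctr + 4-OHT, 2 were called, both higher in *Smg6*-iKO, where 0.757% of all genes tested were higher. They were *Primpol* (0.44 ± 0.061, edgeR adjusted p = 0.00882) and *Fastkd3* (0.35 ± 0.068, edgeR adjusted p = 0.0407), a mitochondrial RNA-binding protein. *Primpol* remained called without each single library. *Fastkd3* was not called without any one of the 8 libraries (edgeR adjusted p of 0.0647 to 0.156), with log2 fold changes of 0.32 to 0.38 in these fits. Neither gene was called without both SMH_125 and SMH_127 (edgeR adjusted p = 0.136 and 0.184). In Ctr + 4-OHT against Ctr none of the 66 was called by edgeR.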

How the data were processed

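RNA of NPC cultures was sequenced in 11 libraries, and groups were taken from the sample labels. The authors depleted rRNA (TruSeq Stranded Total RNA with RiboZero Gold), aligned single reads of 50 bases to GRCm38 with STAR 2.5.4b, and deposited unnormalized counts per Ensembl 92 gene from featureCounts 1.5.0, stranded, without multi-mapping or multi-overlapping reads. Total counts per library were 26418249 to 33756875.

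Counts were fitted with edgeR 4.0.16 in R 4.3.3 (filterByExpr, TMM normalization, quasi-likelihood test, Benjamini-Hochberg adjustment over all genes tested, threshold 0.05), each comparison on its own libraries. SEs were obtained from each gene's log2 fold change and F statistic (|log2 fold change|/√F). CPM were TMM-scaled over 11 libraries; CPM per kilobase were not TMM-scaled. Shares and ratios were compared with two-sided exact permutation tests (Python 3.11.15, scipy 1.17.1). Windows of 50 bases were searched in 141730 nuclear GENCODE M21 transcripts, which hold no introns or intergenic sequence. Scripts were tested on simulated data.

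The numbers that libraries share are embryo numbers in the labels. The correlation of same-embryo deviations was 0.440, 0.469 and 0.599, against -0.417 to 0.126 between other embryos. No 2 libraries of a group agreed within sampling noise. The 13 protein-coding and 2 rRNA genes were named, with tRNAs at either end of counts per length and the 3 called genes of smallest p per nuclear list. Members and lists were chosen with earlier results of these data known.

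Alternatives were DESeq2 size factors, scaling on nuclear genes, no filter, 10 counts in every library, all libraries in 1 fit, the Wald test of DESeq2 1.42.0, the embryo as a block, other denominators of shares, the nuclear copies added, a median ratio, and each library left out.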

Additional observations from a re-analysis of the deposited data

How the results depend on the processing

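Mitochondrial genes called in *Smg6*-iKO against Ctr + 4-OHT numbered 0 under every alternative run. Against Ctr the count was 3 of 26 without a filter (*mt-Rnr1* higher, *mt-Co1* and *mt-Nd4* lower, beside 7.57% of all genes), 1 of 26 by DESeq2 (6.71%), 3 of 15 with the embryo block (21.4%), and 0 to 1 with each library left out. In Ctr + 4-OHT against Ctr it was 1 of 24 without a filter (0.573% of all genes) and 1 of 24 by DESeq2 (0.486%). Apart from those of *mt-Nd4*, *mt-Co1* and *mt-Cytb*, the embryo block changed no call of a named gene. Of the nuclear lists, OXPHOS subunits called against Ctr were 22 in 1 fit of all libraries and 7 to 52 with each library left out. Mitochondrial ribosomal proteins were 2 and 2 to 15, and genes of mitochondrial DNA and RNA 5 and 1 to 9 (14 with the block). Against Ctr + 4-OHT, 1 fit gave 1 of 81 ribosomal proteins and 4 of 66 genes of mitochondrial DNA and RNA (2.67% of all genes). DESeq2 gave 4 of 80 OXPHOS subunits, 6 of 82 ribosomal proteins and 6 of 66 genes of mitochondrial DNA and RNA (2.44% of all genes, those with low counts included). Leaving out 1 library gave 1 of the last list, or 0 without both SMH_125 and SMH_127. In Ctr + 4-OHT against Ctr, 1 ribosomal protein was called without a filter, in 1 fit and by DESeq2 (0.573, 0.331 and 0.486% of all genes). Leaving out libraries also lowers the number of samples, and the cause of these moves was not tested.

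Signs of several shares were not stable. Without both SMH_125 and SMH_127 (chosen after seeing the data), *Smg6*-iKO minus Ctr + 4-OHT was -0.281 percentage points for all mitochondrial genes, -0.254 for rRNA, -0.0270 for protein-coding genes, 0.00626 for the log2 ratio of 16S to 12S and -0.11 for the log2 fold change of *mt-Cytb*. With all libraries and per TMM effective library size, the difference of protein-coding genes was -0.0134. With each library left out it was -0.0804 to 0.303 for all mitochondrial genes, -0.0539 to 0.318 for rRNA, -0.0265 to 0.0158 for protein-coding genes, -0.0454 to 0.10 for *mt-Cytb*, and 0.20 to 0.42 for the log2 ratio of *mt-Nd6*. *Smg6*-iKO minus Ctr was -0.0889 for all mitochondrial genes and -0.0382 for rRNA within embryos (the paired block), and -0.0889 to 0.243 and -0.0382 to 0.309 with each library left out. Ctr + 4-OHT minus Ctr was then -0.185 to 0.192 for all mitochondrial genes, -0.125 to 0.216 for rRNA, -4.4e-05 to 7.2e-05 for tRNA, -0.0316 to 0.0695 for the log2 ratio of 16S to 12S, -0.12 to 0.11 for that of *mt-Nd6*, and, as log2 fold changes, -0.27 to 0.00572 for *mt-Nd6* and -0.42 to 0.0777 for *mt-Tp*. With all libraries, the difference in the *mt-Nd6* ratio was 0.0295 as a median of ratios. None of these reversed values was past its threshold. In the permutation tests, 3 against 3 libraries cannot reach it (smallest exact permutation p of 0.10, as for Ctr + 4-OHT minus Ctr without SMH_125). With 4 against 3 libraries an exact permutation p of 0.0286 is possible. The cause of these reversals was not tested. The 11 genes in the copied span and most tRNA genes are beyond what these counts can show.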
